A study of Mus musculus with 11 samples.

Results

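The smooth muscle contractile genes are 31 genes whose proteins build or control the contractile machinery of visceral smooth muscle. They were chosen by name and not by a cut on their values, though with earlier results of these data known. Their summed level stands here for the muscle layer in RNA of the whole colon wall. Of the 31 genes, 30 had a row in the table of 22243 genes and 23 passed the filter of at least 1 TPM (a transcript level scaled for transcript length and library total) in at least 5 mice, as 10756 genes did in all. The list stands at 23 tested genes because Smtn, Synpo2, Kcnma1, Myocd, Cacna1c, Ryr2 and Prkg1 fell below that filter, and Myh11, the smooth muscle myosin heavy chain, was not analysed here.

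The tissue was full-thickness distal colon of adult mice aged 11 to 12 weeks. The 6 wild-type mice (WT) carried intact Nrg4, and the 5 knockout mice (KO) were homozygous mutants, Nrg4-/-, lacking neuregulin-4, a secreted ligand of the receptor ErbB4. Both genotypes were housed together from 9 weeks of age in 3 cages: cage A with 2 WT and 2 KO mice, cage B with 2 WT and 2 KO mice, and cage C with 2 WT mice and 1 KO mouse. The labels name neither the strain nor the construction of the mutant allele, and they give no sex per mouse although males and females were both used. Each library is 1 mouse, named by genotype and mouse number.

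In smooth muscle, a rise in cytosolic calcium loads calmodulin, which activates myosin light chain kinase. The kinase phosphorylates the regulatory light chain, and myosin then pulls on actin filaments that are anchored at dense bodies and at dense plaques of the membrane. Serum response factor, with its coactivator myocardin, drives many of these genes from CArG boxes. In the colon the circular and longitudinal coats of the muscularis externa hold most smooth muscle, with less in the muscularis mucosae and in vessel walls, and RNA of the whole wall does not separate these layers.

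A CArG box has an A- and T-rich centre of 6 bases between a pair of C and a pair of G, and reads as such on both strands. The windows below are shown because contractile genes are the textbook case of this element. They come from the RefSeq promoter table (GRCm38.p6, the assembly also named mm10), in which 27 of the 31 members were found. Actg2, Tagln, Myocd and Myh11 had no entry there, so no box was searched for in them. Each window of 30 bases is printed 5′ to 3′ on the gene's strand with the box in capitals, and distances run from the first base of the box to the RefSeq start. Myl9 and Ldb3 hold a full box. The boxes of Acta2, Jph2 and Pdlim3 have 1 central base that is neither A nor T. The coordinates are chr2:156775293-156775322, plus strand, 161 bases before the start of Myl9; chr14:34588697-34588726, minus strand, 35 bases before the nearer start of Ldb3; chr19:34255438-34255467 and chr19:34255388-34255417, minus strand, 84 and 34 bases before the start of Acta2; chr2:163398047-163398076, minus strand, 73 bases before the nearer start of Jph2; and chr8:45885377-45885406, plus strand, 100 bases before the start of Pdlim3.
Myl9: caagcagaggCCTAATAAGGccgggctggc
Ldb3: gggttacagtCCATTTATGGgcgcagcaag
Acta2, distal: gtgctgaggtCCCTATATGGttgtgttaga
Acta2, proximal: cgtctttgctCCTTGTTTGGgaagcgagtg
Jph2: gatccaatggCCTTGTTAGGgcaacactga
Pdlim3: tctctcacttCCAAAGTTGGagctctcctt

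Within the 250 bases before a start, 3 of the 27 members (11.1%) held a full box, namely Myl9, Ldb3 and Myl6, against 1.62% of the 27025 genes in the table. With 1 central base allowed to be G or C, 9 members (33.3%) held one, against 9.78% of all genes. Besides those printed, these were Myl6, Cacna1c, Sspn and Synm. Myl9 held a second, looser box 99 bases before its start. A stretch of 206 bases with both boxes in capitals is printed to show their spacing (chr2:156775214-156775419, plus strand). It ends at the base before the listed GENCODE transcript of Myl9, 44 bases short of the RefSeq start from which the distances are counted.
Myl9, upstream: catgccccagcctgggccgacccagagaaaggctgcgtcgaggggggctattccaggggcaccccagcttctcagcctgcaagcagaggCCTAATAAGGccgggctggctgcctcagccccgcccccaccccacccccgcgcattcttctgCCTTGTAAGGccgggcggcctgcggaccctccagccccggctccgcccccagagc
The match is one of letters, and no binding was measured. Both Acta2 windows and the Myl6 window overlap an exon of another transcript of the same gene in GENCODE M21, so that they lie upstream only of the start used here.

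The checks that the series allows were limited. Nrg4 was listed at 0 TPM in all 11 mice, so its level could not test the genotype labels. Of the smooth muscle markers used to check the tissue, Acta2, Actg2, Tagln, Cnn1 and Des were at least 174 TPM in every mouse and Myh11 was not analysed here; other members, among them Smtn and Synpo2, were listed at 0 in some mice. All 22 markers of colon epithelium passed the filter, with a summed level of 14205 to 21679 TPM. Of the 22 skeletal and cardiac muscle markers 3 passed, with a sum of 17.8 to 43.98 TPM, and Myh4 and Ttn were listed at 0 throughout. None of the 14 squamous epithelium markers passed. Mitochondrially encoded genes took 19.0% to 42.9% of the summed TPM, most in KO-3. The Y-linked transcript Eif2s3y had 21.5 to 31.8 TPM in cage A, while no mouse of cages B and C passed 0.0523 TPM, so cage A and male sex cannot be told apart.

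The first question was how much of the colon's transcript pool the contractile genes took in each mouse. Their share of the summed TPM was 1.04% in WT-2, 1.49% in WT-5, 0.926% in WT-6, 0.970% in WT-7, 1.02% in WT-10 and 0.918% in WT-11. It was 1.49% in KO-1, 0.702% in KO-3, 1.01% in KO-4, 1.10% in KO-8 and 1.14% in KO-9. WT-5 and KO-1, both of cage A, stood high and KO-3 stood low, and every KO value but that of KO-3 fell inside the WT range. The means were 1.06% ± 0.217 in WT (SD, n = 6) and 1.09% ± 0.282 in KO (SD, n = 5), a gap smaller than either SD. No test was run on this sum, because its members were chosen with results of these data known. In RNA of the whole wall, fewer muscle cells and less RNA per cell cannot be told apart.

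The low share of KO-3 went with its mitochondrial share of 42.9%. Over nuclear genes alone, the contractile genes took 1.23% in KO-3, above the 1.19% of WT-6, WT-11 and the 1.20% of WT-7. Their summed level in KO-3, 5413 TPM, was still the lowest of all mice. The median log2 deviation from the gene means there was -0.35 over the members and 0.01 over all tested genes. The means over nuclear genes were 1.42% ± 0.307 in WT and 1.50% ± 0.234 in KO. WT-5 and KO-1 were again highest, with 1.98% and 1.84%.

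**Figure D1:**
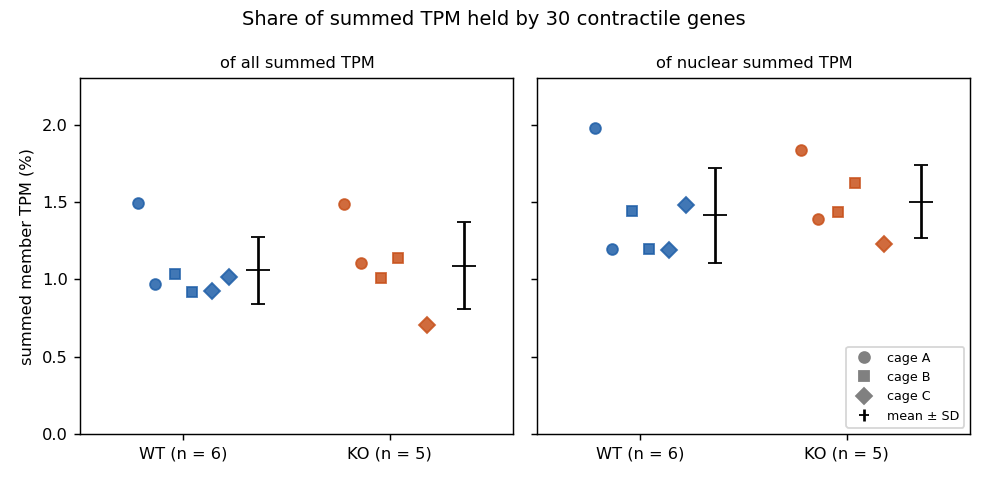
Summed TPM of the 30 contractile genes as a percentage of all summed TPM (left) and of nuclear summed TPM (right), 1 point per mouse, with marker shape for the cage and a black bar for the mean ± SD. WT-5 and KO-1 lie at 1.49% on the left, and KO-3, lowest there at 0.702%, lies at 1.23% on the right.

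By cage, the share of all summed TPM was highest in A and lowest in C, with ranges that overlapped. Cage A had 1.26% ± 0.267 (SD, n = 4), cage B had 1.03% ± 0.0913 (SD, n = 4) and cage C had 0.882% ± 0.162 (SD, n = 3). Within cage A the mean of 2 WT mice was 1.23% and that of 2 KO mice 1.30%. Within cage B the means were 0.977% and 1.07%. In cage C the 2 WT mice had a mean of 0.972% and the single KO mouse 0.702%. KO was thus the higher genotype of cages A and B and the lower of cage C. The mean mitochondrial share ran the other way, lowest in cage A and highest in cage C. Over nuclear genes alone the cage means kept their order. The ranges there were 1.20% to 1.98% in cage A, 1.19% to 1.62% in B and 1.19% to 1.48% in C. KO-3, at 1.23%, then lay between the WT mice of its cage, though below their mean.

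A few filament genes made up most of the sum. Myl6, the essential light chain of smooth muscle and of non-muscle myosin, supplied 28.2% of it on average, Tagln 14.8%, Actg2 14.2%, Acta2 12.6%, Myl9 9.29%, Csrp1 6.70%, Des 6.15% and Cnn1 3.17%. By role, myosin chains and their kinase held 38.5%, actins 26.8%, thin-filament and actin-binding proteins 26.1%, intermediate filaments 6.30%, dense-body and membrane proteins 1.95%, and calcium handling and channels 0.369%. Myl6 is made in most cell types, epithelium included, and it was the steadiest member across mice, with a coefficient of variation of 10.6% against 24.0% for Acta2 and 30.5% for Actg2. The summed TPM of the members had a coefficient of variation of 17.4%, between these.

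The second question was whether the members shifted together from mouse to mouse. Each member's log2(TPM + 0.5) was set against its own mean over the 11 mice. In WT-5 all 23 tested members lay above their mean, and in WT-7, of the same genotype and cage, 0 of 23 did. WT-11 had 2 members above, KO-3 had 3 and WT-6 had 7, while KO-8 had 20 and KO-1 and KO-9 had 18 each. WT-2, KO-4 and WT-10 had 12, 13 and 17. The median deviation ran from -0.47 in WT-7 to 0.51 in WT-5. Over all 10756 tested genes the median deviation of these mice was 0.02 and 0.04. The levels in WT-5 were a median of 1.96 times those in WT-7 over the members, and 1.01 times over all tested genes. Of the 23 members, 15 were highest in WT-5, 12 were lowest in WT-7 and 5 were lowest in KO-3.

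**Figure D2:**
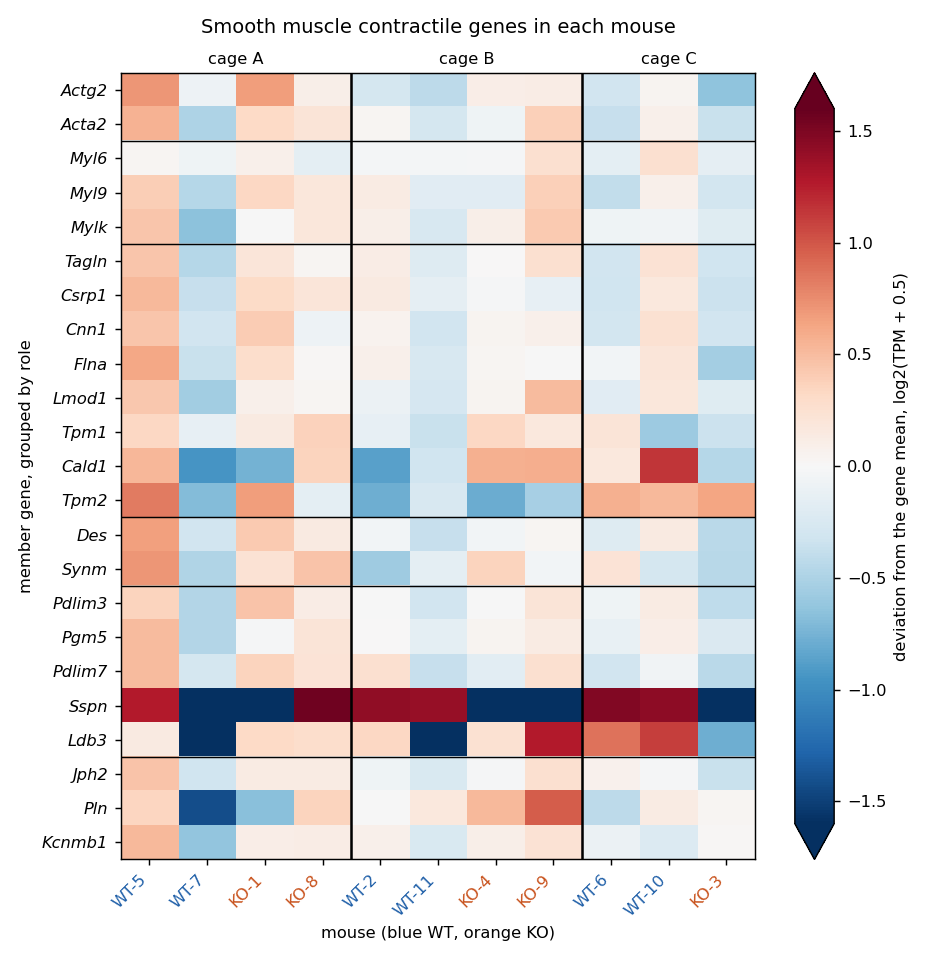
Deviation of each tested member from its own mean over 11 mice, on the log2(TPM + 0.5) scale, with mice in columns by cage and members in rows by role; colours saturate at the ends of the scale. The WT-5 column is above the mean for 23 of 23 members and the WT-7 column for 0, and Sspn splits the mice into a high and a low set.

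Several other lists shifted with the contractile genes in the 2 extreme mice, WT-5 and WT-7. The median deviation of 17 other smooth muscle markers was 0.48 in WT-5, -0.54 in WT-7 and -0.32 in KO-3. That of 17 fibroblast and matrix genes was 0.50, -0.51 and -0.44 in the same mice. The 22 epithelial markers stood at 0.07 in WT-5, 0.05 in WT-7 and -0.28 in KO-3. Endothelial genes (8 genes) stood at 0.44, -0.83 and -0.15 and enteric glia (4 genes) at 0.30, -0.22 and -0.31. The 13 enteric neuron genes stood at 0.37, -0.43 and 0.12, and they were lowest in KO-1, at -0.55, where the contractile genes were at 0.23. The part of these cell types in the shift of the contractile genes was not tested.

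**Figure D3:**
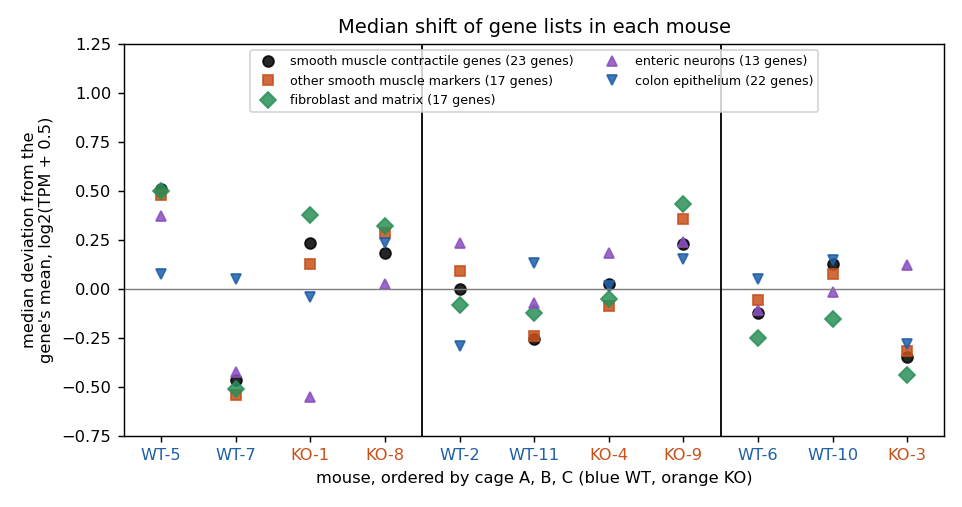
Median deviation from the gene means in each mouse for the contractile genes and 4 other lists, on the log2(TPM + 0.5) scale. Contractile genes, other smooth muscle markers and matrix genes lie at 0.48 to 0.51 in WT-5 and at -0.54 to -0.47 in WT-7, where epithelial markers lie at 0.07 and 0.05.

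The third question was whether the contractile genes differed between KO and WT. In a limma fit that held cage, 0 of the 23 members passed a false discovery rate (FDR, Benjamini-Hochberg) of 0.05, beside 4 of all 10756 genes (0.0372%). At an unadjusted p under 0.05 there was 1 member, Sspn, beside 3.1% of all genes. The authors' deposited table held 1 of 33 member transcripts with a p under 0.05 and 0 with a q under 0.05, beside 2.24% and 0.0339% of all its 14763 transcripts with a p. No member had KO values clear of all WT values, as 0.223% of all genes did. The log2 fold change (of TPM + 0.5, KO minus WT) was above 0 for 19 of the 23 members, beside 46.8% of all genes, with a median of 0.07 against -0.01. This count rested on single mice: without WT-7 it was 7 of 23 with a median of -0.04 (all genes, 45.1%), and without WT-11 it was 12 (49.3%). Without both WT-7 and KO-3, the lowest mouse of each genotype by median deviation, it was 13 with a median of 0.03 (42.3%), a setting chosen after seeing the data. In cage A alone 22 members were above 0, with a median of 0.17 (all genes, 49%), and in cages B and C alone 15 were, with a median of 0.01 (46.8%).

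**Figure D4:**
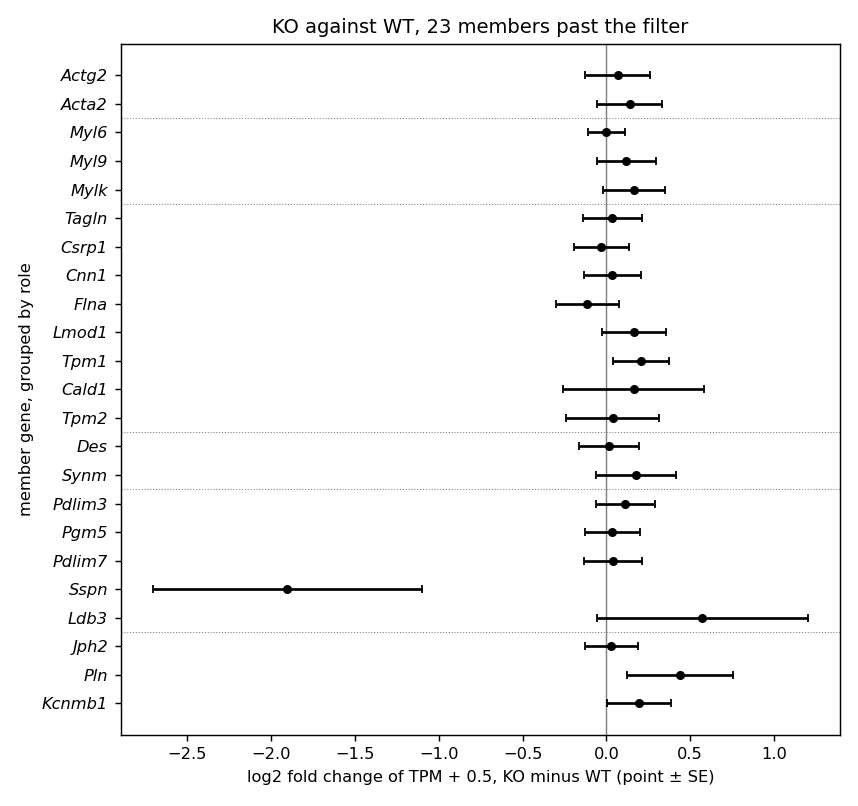
Log2 fold change, KO minus WT, of the 23 tested members (point ± standard error from limma with cage as a term), grouped by role from actins at the top to calcium handling at the bottom. The points of 20 members lie within 0.25 of 0, and Sspn at -1.90 has the widest error.

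The actins form the thin filaments. Acta2, the alpha smooth muscle actin (chr19:34241090-34255590, minus strand), ran in WT from 608 TPM in WT-7 to 1258 in WT-5 with a median of 789. In KO it was 1067 in KO-1, 668 in KO-3, 819 in KO-4, 983 in KO-8 and 1114 in KO-9. All KO values fell inside the WT range, and the log2 fold change was 0.14 ± 0.19 (SE; limma, n = 11 mice). Its 95% interval ran from 0.816-fold to 1.48-fold.

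Actg2, the gamma actin of enteric muscle (chr6:83512905-83536265, minus strand), ran in WT from 712 TPM in WT-11 to 1553 in WT-5 with a median of 844. The KO mice had 1512 in KO-1, 608 in KO-3 and between 1021 and 1032 in KO-4, KO-8 and KO-9. The highest value of each genotype came from cage A and the lowest KO value from cage C, with a log2 fold change of 0.07 ± 0.19. Actg2 per Acta2, both per transcript length, was 1.15 ± 0.202 in WT and 1.11 ± 0.219 in KO, with 0.901 in WT-2 and 1.48 in WT-7 at the ends. By cage, the ratio was 1.29 ± 0.200 for A, 1.02 ± 0.158 for B and 1.05 ± 0.130 for C.

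The table listed 2 principal transcripts of Actg2. The transcript ENSMUST00000121731.7 supplied 65.9% to 76.3% of the gene's TPM, with 72.1% ± 3.93 in WT (SD, n = 6) and 68.3% ± 2.07 in KO (SD, n = 5). The WT range, from 66.2% in WT-2 to 76.3% in WT-6, held all KO values but that of KO-8, at 65.9%. In the authors' deposited table the technical variance of this transcript was 1.84% of its observed variance.

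Among the myosin genes, Myl6 ran in WT from 1708 to 2262 TPM with a median of 1858, and in KO from 1699 in KO-8 to 2274 in KO-9. Its log2 fold change was -0.00077 ± 0.11, and its interval of 0.844-fold to 1.18-fold was the narrowest of the members. Myl9, the regulatory light chain whose upstream boxes are printed above, ran in WT from 460 to 828 TPM with a median of 609.9. Among KO mice the values were 793 in KO-1, 512 in KO-3, 556 in KO-4, 716 in KO-8 and 821 in KO-9, a log2 fold change of 0.12 ± 0.18. Mylk, the kinase of that light chain, ran in WT from 45.1 TPM in WT-7 to 97.3 in WT-5 with a median of 68.3. In KO it was 70.9 in KO-1, 62.1 in KO-3, 76.4 in KO-4, 81.1 in KO-8 and 95.7 in KO-9. All KO values of Mylk lay inside the WT range, and its log2 fold change was 0.17 ± 0.18.

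Of the actin-binding proteins, Tagln was the most abundant. Tagln, or transgelin, which cross-links actin (chr9:45929619-45936058, minus strand), ran in WT from 733 to 1373 TPM with a median of 982. The KO mice had 1154, 804, 1006, 1028 and 1195 in KO-1, KO-3, KO-4, KO-8 and KO-9, all within the WT range. Its log2 fold change was 0.04 ± 0.18. Cnn1, calponin, which restrains myosin's activity on actin, ran in WT from 174 TPM in WT-11 to 294 in WT-5 with a median of 199. Among KO mice the values were 286 in KO-1, 175 in KO-3, 222 in KO-4, 203 in KO-8 and 228 in KO-9. The KO values again lay inside the WT range, with a log2 fold change of 0.04 ± 0.17. Csrp1, a LIM protein of the actin cytoskeleton also made outside muscle, ran in WT from 352 TPM in WT-7 to 652 in WT-5 with a median of 455. In KO it was 561 in KO-1, 358 in KO-3, 447 in KO-4, 517 in KO-8 and 415 in KO-9. These too lay inside the WT range, and the log2 fold change was -0.03 ± 0.17. Tagln, Tpm1 and Cnn1 are the 3 members on chromosome 9, which carries Nrg4, at 9.28, 11.7 and 33.1 Mb from it.

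The tropomyosins line the actin groove. Tpm1 had 15.4 ± 3.71 TPM in WT against 18.2 ± 3.38 in KO, with WT-10 lowest at 10.8 and KO-8 highest at 21.3, and a log2 fold change of 0.21 ± 0.17 (unadjusted p = 0.252, limma FDR 0.9999). The value covers the 1 listed principal transcript of the 16 protein-coding transcripts that GENCODE M21 annotates. Cald1, caldesmon, another inhibitor of myosin on thin filaments, was listed by 1 of 10 coding transcripts. In WT it ran from 1.63 TPM in WT-7 to 8.50 in WT-10 with a median of 3.43, and in KO it was 1.93 in KO-1, 2.49 in KO-3, 5.54 in KO-4, 4.71 in KO-8 and 5.60 in KO-9. The ranges overlapped, and the authors' deposited technical variance of its transcript was 4.38 times its observed variance, at 438%. For such a transcript the values of single mice carry more quantification error than spread.

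The remaining actin-binding members were of moderate level. Flna, a large actin cross-linker of most cells, had 53.98 ± 14.0 TPM in WT against 50.4 ± 9.81 in KO. Lmod1, leiomodin, which nucleates actin filaments, had 18.2 ± 4.61 TPM in WT against 20.3 ± 3.88 in KO. Both had WT-7 as their lowest WT mouse and WT-5 as their highest.

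The intermediate filament genes were Des and Synm. Des, desmin, which ties dense bodies together (chr1:75360329-75368579, plus strand), ran in WT from 322 TPM in WT-11 to 659 in WT-5 with a median of 382. The KO mice had 555 in KO-1, 310.0 in KO-3 and between 405 and 461 in the other 3 mice. KO-3 alone lay outside the WT range, and the log2 fold change was 0.02 ± 0.18. Synm, synemin, a partner of desmin, had 9.83 ± 3.79 TPM in WT against 11.1 ± 2.69 in KO.

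Of the attachment proteins, Sspn had a pattern of its own across the mice. Sspn encodes sarcospan, a membrane-spanning partner of the dystrophin complex (chr6:145931641-145965223, plus strand). It had 4.22 TPM in WT-2, 3.75 in WT-5, 4.45 in WT-6, 0.0329 in WT-7, 4.28 in WT-10 and 4.14 in WT-11. In KO it had 0.0523 TPM in KO-1, 0.0224 in KO-3, 0.0178 in KO-4, 4.69 in KO-8 and 0.0789 in KO-9. The mice thus fell near 4 TPM or below 0.1 TPM with nothing between, 5 of 6 WT mice in the upper set and 4 of 5 KO mice in the lower. The log2 fold change was -1.90 ± 0.80 (unadjusted p = 0.0388, limma FDR 0.9999). For levels this low it moved with the pseudocount, to -3.03 with 0.1 and -1.41 with 1 in place of 0.5.

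Outside cage A the upper and lower sets of Sspn were the genotypes, while inside it each set held 1 WT and 1 KO mouse. Fitted in cages B and C alone, the log2 fold change was -3.15 ± 0.19 (limma FDR 0.00340, n = 4 WT and 3 KO), 1 of 23 members called beside 0.0372% of all genes. Sspn was in this fit through the filter over all 11 mice, since in cages B and C only the 4 WT mice reached 1 TPM. The KO values there, 0.0224, 0.0178 and 0.0789 TPM, lay at the floor set by the pseudocount, which narrows the SE. Other pseudocounts were not tried in these cages, so this FDR only describes the split. In cage A alone the log2 fold change was 0.17 ± 1.43 (limma FDR 0.9999, n = 2 and 2). The limma F test of genotype by cage gave an unadjusted p of 0.125 (FDR 0.9999) for Sspn, so a difference between the cages was not shown. The mice of cage A also differ from the others by their Y-linked transcripts. The table listed 1 of 3 annotated Sspn transcripts. Its estimated count had a geometric mean of about 25.1, which averages over the upper and lower sets and describes neither. In the authors' deposited table its technical variance was 30.4% of the observed variance and its p was 0.0323 with a q of 1. The other 2 transcripts were not analysed here.

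**Figure D5:**
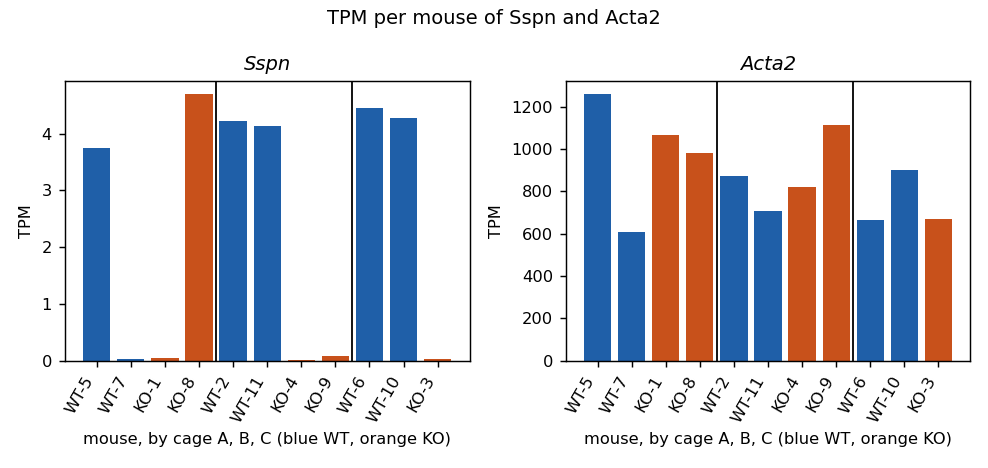
TPM of Sspn (left) and Acta2 (right) in each mouse, by cage from A to C, with WT bars in blue and KO bars in orange. Sspn lies near 4 TPM in 6 mice and below 0.1 TPM in 5, whereas Acta2 varies about 2.07-fold from WT-7 to WT-5.

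The other attachment proteins were closer between genotypes. Pdlim3, a PDZ-LIM protein that joins actin bundles to alpha-actinin, had 72.7 ± 14.9 TPM in WT against 79.9 ± 17.0 in KO. The related Pdlim7 ran in WT from 16.9 TPM in WT-11 to 31.3 in WT-5 with a median of 19.5, and in KO it was 28.1 in KO-1, 16.0 in KO-3, 19.4 in KO-4, 25.6 in KO-8 and 26.3 in KO-9. Of these, KO-3 alone lay outside the WT range. Pgm5, a dense-plaque protein related to phosphoglucomutase, had 31.5 ± 7.52 TPM in WT against 32.1 ± 3.61 in KO. Ldb3, a PDZ-LIM protein best known from striated muscle Z-discs, passed the filter at a low level, with 0 TPM listed in WT-7 and WT-11 and a WT median of 1.69 and maximum of 3.50 TPM. Among KO mice the values were 1.82 in KO-1, 0.578 in KO-3, 1.69 in KO-4, 1.75 in KO-8 and 3.98 in KO-9, the highest of all mice.

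Calcium handling genes were sparse in this table. Pln, phospholamban, which restrains the calcium pump of the store, ran in WT from 2.05 TPM in WT-7 to 8.16 in WT-5 with a median of 6.62. In KO it was 3.79 in KO-1, 6.50 in KO-3, 9.29 in KO-4, 8.27 in KO-8 and 12.9 in KO-9. The ranges overlapped, KO-1 lying below all WT mice but WT-7, with a log2 fold change of 0.44 ± 0.31 (unadjusted p = 0.192, limma FDR 0.9999). The value sums 6 listed principal transcripts. The most abundant, ENSMUST00000046221.7, had 3.77 ± 1.30 TPM (SD) in WT against 3.92 ± 1.05 in KO. The means were further apart for ENSMUST00000219491.1 (0.410 in WT, 1.33 in KO), ENSMUST00000219921.1 (1.45, 2.19) and ENSMUST00000220197.1 (0.246, 0.708). The geometric mean of the estimated counts was 2.88 for ENSMUST00000219491.1 and 4.49 for ENSMUST00000219921.1. Kcnmb1, the beta subunit of the large-conductance calcium-activated potassium channel, had 4.35 ± 1.35 TPM in WT against 4.94 ± 0.292 in KO. All 5 KO values lay between 4.58 and 5.39 TPM, inside the WT range of 2.76 to 6.72, and the log2 fold change was 0.19 ± 0.19. Jph2, junctophilin, which holds the calcium store near the plasma membrane, had 13.4 ± 2.85 TPM in WT against 13.8 ± 2.20 in KO.

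The pore-forming channel and release genes lay below the filter. Cacna1c, the L-type calcium channel, was listed at 0 TPM in all mice and Kcnma1, the pore partner of Kcnmb1, in 10 of 11, with 0.130 TPM in KO-8. The table held 1 of 22 annotated coding transcripts of Cacna1c and 1 of 31 of Kcnma1, so these zeros concern those transcripts. Ryr2, a calcium release channel, ran in WT from 0.0970 to 0.424 TPM with a median of 0.193, and in KO from 0.129 in KO-1 to 0.235 in KO-9, inside the WT range. Smtn, smoothelin, was listed at 0 in WT-2, WT-7 and KO-4 and reached 4.07 TPM in WT-5. Synpo2, an actin-bundling protein of dense bodies, ran from 0 in WT-7 and WT-11 to 1.88 TPM in WT-2. Only 2 of 7 annotated coding transcripts of Smtn were listed, 1 of 6 of Synpo2 and 1 of 5 of Ryr2. Their low values and zeros likewise concern the listed transcripts.

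The regulators were below the filter too. Myocd, the coactivator myocardin, exceeded 0.1 TPM in 2 mice, WT-11 at 0.498 and KO-3 at 0.516. Prkg1, the cyclic GMP-dependent kinase that relaxes smooth muscle, ran in WT from 0.326 to 1.16 TPM with a median of 0.652, and in KO from 0.309 in KO-9 to 0.888 in KO-8. Myocd was listed by 1 of 4 annotated coding transcripts and Prkg1 by 1 of 3, so these levels concern those transcripts. Srf, which encodes serum response factor and is no member, had 15.9 ± 4.33 TPM in WT against 15.5 ± 1.68 in KO, highest in WT-5 at 24.7.

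Related pathway genes were counted in the same fit, and 0 members of any list passed in KO against WT, beside 4 of all 10756 genes (0.0372%). The positive counts below stand beside 46.8% of all genes. Of serum response factor and its partners 5 of 9 tested genes had a positive log2 fold change, with a median of 0.07. Of the calcium sensitisation genes, led by Rhoa, Ppp1cb and Ilk, 7 of 13 were positive (median 0.04), and of the calcium entry and store genes 7 of 14 (median -0.0092). Of receptors and cyclic nucleotide genes 7 of 11 were positive (median 0.08), and of the dystrophin complex, caveolae and adhesion plaques 21 of 30 (median 0.06). Other smooth muscle markers, led by Tpm4, Pcp4l1 and Mustn1, split 8 to 9 (median -0.01).

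Lists of neighbouring cell types were read the same way, beside the same 46.8% of all genes. The counts of these and the pathway lists were not refitted with single mice left out. In WT-7 the fibroblast and matrix list stood at -0.51 and the endothelial list at -0.83 by median deviation. Fibroblast and matrix genes were positive for 15 of 17 (median 0.15), endothelial genes for 7 of 8 (median 0.37) and pericyte and vascular muscle genes for 2 of 6 (median -0.20). Interstitial cells of Cajal split 3 to 3, enteric neurons 6 to 7, enteric glia 2 to 2 and leukocytes 3 to 4. Colon epithelium was positive for 7 of 22 (median -0.05), skeletal and cardiac muscle for 1 of 3, and mesothelium for 0 of 1, Krt19, which epithelium also expresses. The summed pericyte and vascular muscle markers ran from 17.7 TPM in WT-7 to 59.4 TPM in WT-5. WT-7 and WT-5 were also the lowest and highest WT mice by median deviation of the contractile genes. Within that sum, Rgs5 alone ran from 6.65 TPM in WT-7 to 41.4 TPM in WT-5. By median deviation the pericyte and vascular muscle list was highest in WT-5, at 0.57, and lowest in WT-6, at -0.30, with WT-7 at -0.15. The part of these markers in the genotype comparison was not tested.

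The fourth question was whether cages differed, whatever the genotype. The F test on cage called 0 of 23 members, as it called 0 of all genes (0%). At an unadjusted p under 0.05 there was 1 member, Tpm2, beside 12.1% of all genes. Tpm2 had 1.16 to 4.26 TPM in cage A, 1.05 to 1.74 in cage B and 3.31 to 3.65 in cage C (F = 5.99, unadjusted p = 0.0195, limma FDR 0.356). Every mouse of cage C thus lay above every mouse of cage B, at levels for which the authors' deposited technical variance was 318% of the observed variance. The Tpm2 value covers 1 listed transcript of 4 annotated coding transcripts. Actg2 came next, with log2 differences from cage A of -0.47 for cage B and -0.64 for cage C (unadjusted p = 0.0553, limma FDR 0.419), followed by Pdlim7 (unadjusted p = 0.158) and Pln (unadjusted p = 0.162). Without WT-7, 6 of 23 members had an unadjusted p under 0.05, beside 14.6% of all genes, and 0 passed the adjustment.

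The last question was whether any genotype difference changed with the cage. The interaction of genotype and cage, by F test, called 0 of 23 members, beside 2 of all genes (0.0186%), and 0 had an unadjusted p under 0.05, beside 3.97% of all genes. The smallest p values were those of Ldb3 (0.0768), Cald1 (0.0907), Sspn (0.125) and Actg2 (0.147), all with limma FDR 0.9999. The KO arm of cage C is the single mouse KO-3. Without WT-5, 8 of 23 members had an unadjusted p under 0.05, beside 4.48% of all genes, and 0 passed the adjustment.

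How well the values were measured differed by member. In the authors' deposited table, the technical variance was under 10% of the observed variance for 15 of 33 member transcripts, with 0.122% for Acta2, 0.193% for Tagln and 0.188% for Des. The median was 11.5% over member transcripts and 39.1% over all 14763 transcripts with a p. For the abundant filament genes the spread between mice therefore exceeds the quantification error by far, and for the transcripts of Cald1, Tpm2 and the minor Flna transcript it does not. It does not for the 2 single transcripts of Jph2 either, whose major share ran from 32.9% to 91.1%; no technical variance is given for their sum, the value used here. Across the 23 tested members the standard error of the log2 fold change had a median of 0.18, from 0.11 for Myl6 to 0.80 for Sspn.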

How the data were processed

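Polyadenylated RNA of full-thickness distal colon from 6 WT and 5 Nrg4-/- mice was read as single-end reads of 75 nt, per the labels' protocols. CASAVA, kallisto and sleuth with the mm10 build are named in the submitters' processing notes; the sources used here give no versions. The deposited table gives TPM per APPRIS principal transcript and mouse, per the file headers. Other transcripts are left out of it, and a mouse sums to 558446 to 770986 TPM. Whether the values were also rescaled between mice is not known. The median-of-ratios scaling factors, tried as an alternative, ran from 0.978 in WT-10 to 1.04 in WT-5. TPM keeps no read depth per mouse, and no counting interval is given. The same deposited table holds the authors' p-value and q-value, the log2 ratio, and, as a natural log, the mean estimated count, beside other deposited variance columns; a geometric mean count is the exponential of that natural log. The smallest q of a member transcript was 1.

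Of 29213 rows, 405 repeats were dropped, and TPM was summed over the listed transcripts of a gene. The filter was 1 TPM or more in 5 mice or more. The test was limma 3.58.1 (R 4.3.3) with a mean-variance trend, fitted to log2(TPM + 0.5) on cage and genotype. F tests used both cage terms or both interaction terms. P-values were adjusted over all genes tested (Benjamini-Hochberg, FDR 0.05). A fold change on this scale understates low genes. The limma steps were tested on simulated data in which genes varied independently, so a shift shared by genes of a mouse was not covered. Coordinates are from GENCODE M21 (GRCm38) and sequences from RefSeq. Nothing says beyond the mouse numbers how animals were related, so p-values measure the spread between these mice.

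The members and lists were chosen with earlier results of these data known. All members could be named; values by mouse or range are given for abundant filament genes, for up to 4 members with the smallest p in each test and for members below the filter, and other lists are named by their 3 most abundant genes. Sensitivity was tried for pseudocount, filter, scaling, cage term, trend, cages and each mouse left out.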

Additional observations from a re-analysis of the deposited data

Results flagged for a closer look

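In 61 groups of 5 or 6 mice, 8 values stood apart from the rest of their genotype. The measure was the gap to the nearest mouse over the whole range. For normally distributed, independent groups chance flags about 1 in 20, a rate that does not carry over here. For Kcnma1 and Myocd, at or near 0 in the other mice of the genotype, a single higher value is flagged whatever its size. The WT-5 flags are not independent, since Actg2 is part of both sums. In WT, WT-5 was high for Actg2 (1553 TPM, 0.682 of the range) and for the summed contractile genes, at 1.49% of all TPM and 1.98% of nuclear TPM. WT-7 was low for Sspn, at 0.0329 TPM, and KO-8 was high for it, at 4.69 TPM among KO mice otherwise below 0.1 TPM. KO-8 was also the single mouse with Kcnma1 above 0, at 0.130 TPM. Myocd stood out at 0.498 TPM in WT-11 and at 0.516 TPM in KO-3, each the single mouse of its genotype above 0.1 TPM.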

How the results depend on the processing

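Under the alternatives to the test of KO against WT, the count of members past the threshold was 0 in all but 1: with cages B and C alone it was 1, Sspn, with a log2 fold change of -3.15 (limma FDR 0.00340). Sspn was in that fit only because the filter was applied over all mice, and its KO values there lay at the floor. With single mice left out the count of members was 0 in every fit of the genotype, cage and interaction tests. Over all genes and alternatives the genotype test called 0 to 5, the cage test 0 to 4 (4 with no filter) and the interaction test 0 to 49 (49 with no filter, 12 with a pseudocount of 0.1). The interaction fit without KO-3 could not be made, since it empties the KO arm of cage C. The count of members above 0 ranged from 7 to 22 with single mice left out. The KO minus WT difference in mean log2 share was 0.018, from -0.10 to 0.17 with single mice left out, and -0.47 within cage C, where KO is 1 mouse; removing WT-7 and KO-3, chosen after seeing the data, gave 0.14. Signs of single members were not stable. Other settings turned them for Myl6 (0.0088 with median-of-ratios scaling, 0.026 without mitochondrially encoded genes, 0.0023 with no cage term, 0.012 in cages B and C alone), Csrp1 (0.0011 with no cage term, 0.17 in cage A alone), Tagln (-0.013) and Des (-0.035) in cages B and C alone, and Sspn (0.17 in cage A alone). Without WT-7 and KO-3, Myl6 was at 0.061, Tagln at -0.033, Cnn1 at -0.00064, Des at -0.031 and Kcnmb1 at -0.021. With single mice left out, log2 fold changes ranged from -0.024 to 0.28 for Acta2, -0.043 to 0.26 for Actg2, -0.063 to 0.065 for Myl6, -0.025 to 0.22 for Myl9, -0.10 to 0.15 for Tagln, -0.079 to 0.14 for Cnn1, -0.18 to 0.069 for Csrp1, -0.13 to 0.15 for Des, 0.20 to 0.70 for Pln, 0.0063 to 0.32 for Mylk, 0.034 to 0.36 for Kcnmb1 and 0.13 to 0.33 for Tpm1. That of Sspn ranged from -2.66 to -1.46, with a smallest limma FDR of 0.469, and was -3.03 with a pseudocount of 0.1 and -1.41 with 1. No paired analysis was possible because WT and KO mice share no replicate number; cage, which both genotypes share, was a term of the fit. The table gives a mean estimated count per transcript over the mice but none per mouse, so the depth of a single mouse's value is unknown.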
